A study of Rattus norvegicus with 18 samples.

Results

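Genes of transforming growth factor beta (TGF-beta) and activin signaling were followed in the rat cerebral cortex after subarachnoid hemorrhage (SAH), a bleed into the space around the brain. The 9 genes were taken by symbol from the 30735 genes of the deposited count table, and all 9 had enough counts to be tested. Tgfb1, Tgfb2, Tgfb3, Inhba and Gdf15 encode ligands, Tgfbr1 and Tgfbr2 encode receptors, Tgfbi is a gene induced by TGF-beta, and Smad7 encodes an inhibitor inside the cell. The cortex came from adult Sprague Dawley rats, 18 in all, with 6 in each group and 1 library from each rat. SAH was made by pushing a filament through the wall of an artery at the base of the brain, and the cortex was taken 1 day (SAH 1d) or 7 days (SAH 7d) later. Sham rats had the same operation without the perforation, and neither their sampling time nor the sex of any rat is stated. The study's methods name the whole cortex of the operated side, whereas the labels name bilateral cortex and mice. The gene identifiers belong to the rat.

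TGF-beta and activin ligands are secreted as dimers, and the TGF-beta isoforms are held latent in the matrix until they are released. A released ligand joins a type II receptor, such as the product of Tgfbr2, to a type I receptor, such as the product of Tgfbr1, and the pair phosphorylates Smad proteins that move to the nucleus and switch target genes on or off. In injured brain the pathway is best known for its part in microglia and macrophages, in astrocytes and in scar formation.

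Libraries held 27270026 to 38271014 counts, with a median of 30712000. Levels are given as CPM (counts scaled to a common library total, here with the TMM factors of edgeR), and levels of different genes are compared only in the deposited FPKM, a similar measure that is also divided by transcript length. A gene is called higher or lower at a Benjamini-Hochberg adjusted p under 0.05 in the quasi-likelihood test of edgeR over 18444 genes, which gave every adjusted p printed here unless another test is named. Library SAH 1d-3 stood apart in its group and SAH 7d-5 in its own: the summed CPM of 7 monocyte and macrophage markers was 735 in SAH 1d-3 against at most 264 in the other SAH 1d libraries, and 13287 in SAH 7d-5 against at most 400 in the other SAH 7d libraries. Summed neutrophil markers were also highest in these libraries of their groups (64.7 and 220 CPM). In SAH 7d-5 that sum was mostly Mmp8 (130 CPM) and Csf3r (89.2 CPM), while S100a8, S100a9 and Camp were at 0.212, 0.696 and 0.0908 CPM. Summed markers of meningeal fibroblasts were 4213 CPM in SAH 7d-5 against at most 453 CPM in the rest of its group. Summed neuron markers were lowest in SAH 7d-5, at 2279 CPM. The part of these cells in the results on these libraries was not tested. In whole cortex, a change in the number of cells that express a gene and a change in RNA per cell cannot be told apart.

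At SAH 1d, 4 of the 9 genes were higher than in sham (Tgfb1, Gdf15, Tgfbr2 and Tgfbi) and none was lower, beside 14.9% of all tested genes called higher and 10.5% called lower. Of the 4, 3 (Tgfb1, Gdf15 and Tgfbi) rose by at least 2-fold, beside 5.57% of all tested genes. The median log2 fold change of the 9 genes was 0.69 against 0.01 over all tested genes, and all 9 estimates were above 0. Without SAH 1d-3 the same 4 genes were called, 2 of them (Tgfb1 and Gdf15) at 2-fold or more, the median was 0.13 against -0.0018 over all tested genes, and 7 of the 9 estimates were above 0. None of the 9 was called in SAH 7d versus SAH 1d, where 1.37% of tested genes were called, or in SAH 7d versus sham, where edgeR called none of all tested genes (0.0%).

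The promoters of Gdf15 and Inhba are shown because these ligand genes had the highest ratios between a single library and the rest of its group, and that of Tgfb1 because it rose in every SAH 1d library. They are the 250 bases before the transcription start in RefSeq on build GRCr8, on the strand of the gene and 5′ to 3′, with TATAAA in capitals where it occurs. The Gdf15 stretch is chr16:18839015-18839264 on the plus strand, before the downstream one of its 2 listed starts, the Inhba stretch is chr17:53804509-53804758 on the minus strand, and the Tgfb1 stretch is chr1:90324062-90324311 on the plus strand.
Gdf15: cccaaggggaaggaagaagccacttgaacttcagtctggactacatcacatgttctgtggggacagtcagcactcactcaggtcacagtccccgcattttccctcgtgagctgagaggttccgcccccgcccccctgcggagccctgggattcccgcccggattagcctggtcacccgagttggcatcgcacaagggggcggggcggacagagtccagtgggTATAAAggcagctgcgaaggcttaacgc
Inhba: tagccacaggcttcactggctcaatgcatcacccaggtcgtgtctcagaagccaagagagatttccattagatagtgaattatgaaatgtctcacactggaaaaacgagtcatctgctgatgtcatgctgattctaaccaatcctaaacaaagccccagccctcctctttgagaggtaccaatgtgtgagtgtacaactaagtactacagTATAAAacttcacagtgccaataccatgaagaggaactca
Tgfb1: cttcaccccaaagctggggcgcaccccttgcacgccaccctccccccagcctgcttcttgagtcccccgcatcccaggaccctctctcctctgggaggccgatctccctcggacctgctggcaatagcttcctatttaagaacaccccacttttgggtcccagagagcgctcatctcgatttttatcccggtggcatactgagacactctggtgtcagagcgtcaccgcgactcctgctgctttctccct
The letters TATAAA, on either strand, were found in 2 of the 10 promoters listed for the 9 genes, those 2 being Gdf15 and Inhba, against 12.9% of all 33469 rat promoters of the same length. They begin 28 bases before the start in Gdf15 and 40 bases before it in Inhba, a position (the last 40 bases, on the strand of the gene) that holds them in 1.72% of all promoters. In the Tgfb1 stretch TATAAA is not among these letters. The letters TGACTCA (4.05% of all promoters, either strand) and CAGACA (17.2%) were in none of the 10 promoters, and GGGCGG (30.5%) was in 5, including Gdf15, Tgfbr1 and Tgfbr2. These letter matches describe the sequence only, and the 4 motifs were chosen with the expression values known.

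Tgfb1 (ENSRNOG00000020652), the isoform that microglia and macrophages are known to make, rose at SAH 1d and was spread widely at SAH 7d. Its level was 7.44 to 13.4 CPM in sham (median 9.77), 19.2 to 74.1 CPM in SAH 1d (median 23.4) and 8.35 to 165 CPM in SAH 7d (median 23.1). Every SAH 1d library was above every sham library, 5 of the 6 lay within 19.2 to 23.9 CPM, and SAH 1d-3 was the high one. At SAH 1d the log2 fold change was 1.66 (SE 0.31, adjusted p = 0.00286), a 3.16-fold rise that was higher in 6 of 6 libraries than the sham mean. Without SAH 1d-3 it was 1.19 (SE 0.13, adjusted p = 3.39e-05), beside 15.4% of all tested genes called higher.

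Within SAH 7d the Tgfb1 levels ran from 8.35 CPM in SAH 7d-4, inside the sham range, to 43.6 CPM in SAH 7d-2 and 165 CPM in SAH 7d-5. Against sham the log2 fold change was 2.23 (SE 0.63, adjusted p = 0.214) and against SAH 1d it was 0.58 (SE 0.66, adjusted p = 0.737). Neither passed the test, although 5 of the 6 SAH 7d libraries exceeded the highest sham library. With the Wald test of DESeq2 the log2 fold change against sham was 2.23 with an adjusted p of 0.0104, and without SAH 7d-5 it was 1.19 with an adjusted p of 0.0157, so that call depends on the test used.

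Tgfb2 (ENSRNOG00000002418), the isoform that neurons and astrocytes are known to make, did not pass the test in any comparison. Its level was 32.0 to 45.7 CPM in sham (median 38.2), 26.9 to 104 CPM in SAH 1d (median 36.2) and 31.3 to 44.0 CPM in SAH 7d (median 39.3). The 3 groups overlapped, and only SAH 1d-3 lay outside the span of the sham libraries on the high side. At SAH 1d versus sham its log2 fold change was 0.25 (SE 0.29, adjusted p = 0.553), and it was -0.18 (adjusted p = 0.371) without SAH 1d-3. At SAH 7d versus sham it was -0.01 (SE 0.12, adjusted p = 0.972).

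Tgfb3 (ENSRNOG00000009867), the third isoform, was the least abundant TGF-beta isoform in each group by median FPKM. Its level was 5.43 to 9.38 CPM in sham, 7.41 to 11.7 CPM in SAH 1d and 6.08 to 10.8 CPM in SAH 7d, with medians of 8.47, 8.17 and 8.68 CPM. All 3 ranges overlapped, and neither SAH 1d-3 nor SAH 7d-5 was the highest of its group. Its log2 fold change was 0.11 (SE 0.15, adjusted p = 0.621) at SAH 1d versus sham and 0.09 (SE 0.17, adjusted p = 0.786) at SAH 7d versus sham.

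The 3 isoforms made up different shares of their summed FPKM in the groups, which is given as a description with no test. In sham, Tgfb2 held 54.2% ± 5.12 (SD, n = 6) and Tgfb1 27.3% ± 5.12 (SD, n = 6). In SAH 1d the Tgfb1 share was 48.9% ± 5.31 (SD, n = 6) and the Tgfb2 share 37.5% ± 4.24 (SD, n = 6). The lowest SAH 1d share of Tgfb1, 40.4%, was above the highest sham share, 35.1%, and the mean share without SAH 1d-3 was 47.7%. In SAH 7d the Tgfb1 share ran from 21.0% in SAH 7d-4, within the sham range, to 88.6% in SAH 7d-5.

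**Figure D1:**
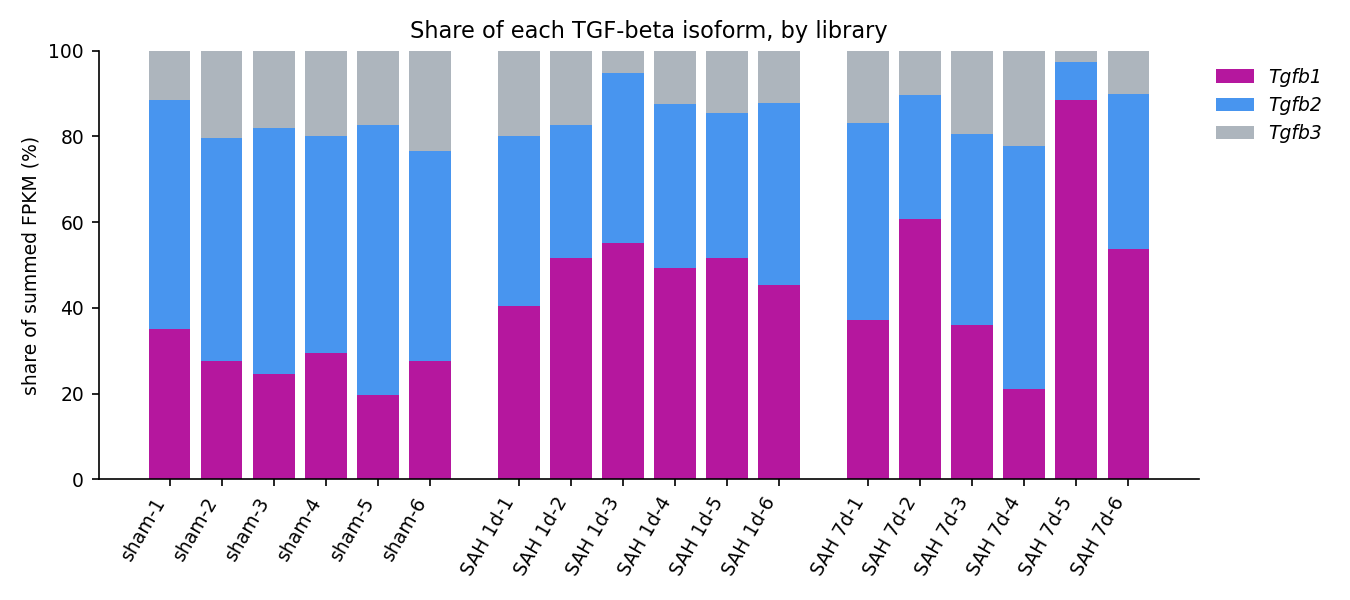
Share of Tgfb1, Tgfb2 and Tgfb3 in their summed FPKM, in percent, with 1 bar for each of the 18 libraries. Tgfb2 is the largest part in all sham libraries (49.1% to 62.9%), Tgfb1 is the largest in each SAH 1d library (40.4% to 55.2%), and in SAH 7d Tgfb1 runs from 21.0% to 88.6%.

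Inhba (ENSRNOG00000014320) encodes the subunit of activin A, a ligand that injured tissue is known to induce. Its level was 0.691 to 2.72 CPM in sham (median 1.94), 0.615 to 64.5 CPM in SAH 1d (median 1.23) and 1.42 to 3.81 CPM in SAH 7d (median 2.17). A single library, SAH 1d-3, held 2543 of the 2759 Inhba counts of SAH 1d, and the other 5 overlapped with sham. For SAH 1d versus sham the log2 fold change was 2.78 (SE 1.11, adjusted p = 0.0815) and did not pass the test. Without SAH 1d-3 it was -0.29 (SE 0.44, adjusted p = 0.663).

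Gdf15 (ENSRNOG00000019661), a stress-induced ligand distantly related to TGF-beta, had the largest log2 fold change of the 9 genes at SAH 1d. In sham 3 libraries had 0 counts and the others 4 or 5 counts (0.152 to 0.173 CPM). In SAH 1d the level was 0.664 to 4.31 CPM, with a median of 1.43 and at least 19 counts per library. All SAH 1d libraries were above all sham libraries, which held for 2 of the 9 genes, Tgfb1 and Gdf15, and for 7.89% of all tested genes. Its log2 fold change was 4.40 (SE 0.74, adjusted p = 0.00147), a 21.2-fold rise, and it was 3.90 (SE 0.65) without SAH 1d-3. With 14 sham counts in all, this fold is less certain than those of the more abundant genes.

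At SAH 7d Gdf15 was back at 0.104 to 0.240 CPM in 5 libraries, with 3 to 7 counts each, and was 7.05 CPM in SAH 7d-5. The 5 lie below every SAH 1d library and SAH 7d-5 lies above them all. SAH 7d versus SAH 1d gave a log2 fold change of -0.41 (SE 1.03, adjusted p = 0.896). Without SAH 7d-5 it was -3.46 (SE 0.52, adjusted p = 0.00363), where 5.19% of all tested genes were called lower. Without SAH 1d-3 as well it was -2.95 (SE 0.37, adjusted p = 0.000632), where 7.49% were called lower. With limma voom, which gives such libraries less weight, it was -2.81 (adjusted p = 0.00166) over all 12 libraries, where 8.37% were called lower. In edgeR the library SAH 7d-5 thus decided whether the difference passed the test.

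Tgfbr1 (ENSRNOG00000007036), the type I receptor, did not pass the test at SAH 1d and was spread widely at SAH 7d. Its level was 34.0 to 62.6 CPM in sham (median 37.6), 35.4 to 60.5 CPM in SAH 1d (median 43.7) and 39.0 to 733 CPM in SAH 7d (median 86.0). Libraries SAH 7d-5, SAH 7d-2 and SAH 7d-6 lay above every sham and SAH 1d library, at 733, 145 and 126 CPM, and the other 3 lay within the sham range. The top of that range was sham-1 alone, and the next sham library was at 39.4 CPM. Its log2 fold change was 0.14 (SE 0.16, adjusted p = 0.540) at SAH 1d versus sham.

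For SAH 7d the log2 fold change of Tgfbr1 was 2.22 (SE 0.69, adjusted p = 0.223) against sham and 2.08 (SE 0.68, adjusted p = 0.167) against SAH 1d. DESeq2 called both, with adjusted p values of 0.0218 and 0.0192, beside 2.2% and 1.99% of all tested genes called higher by DESeq2. Without SAH 7d-5 the edgeR log2 fold changes were 0.98 (adjusted p = 0.248) and 0.82 (adjusted p = 0.148).

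Tgfbr2 (ENSRNOG00000013265), the type II receptor that binds the ligand first, rose at SAH 1d. Its level was 7.63 to 14.0 CPM in sham (median 9.06), 12.4 to 24.3 CPM in SAH 1d (median 14.1) and 9.31 to 122 CPM in SAH 7d (median 14.9). At SAH 1d 4 of the 6 libraries were above the highest sham library, sham-1, and all 6 were above the sham mean. Tgfbr2 had a log2 fold change of 0.69 (SE 0.18, adjusted p = 0.0164), a 1.61-fold rise, and it was 0.51 (SE 0.14, adjusted p = 0.0138) without SAH 1d-3. At SAH 7d versus sham it was 1.72 (SE 0.62, adjusted p = 0.258), and without SAH 7d-5 it was 0.52 (adjusted p = 0.340).

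In SAH 7d, Tgfb1, Tgfbr1 and Tgfbr2 put the 6 libraries in the same order, from SAH 7d-5 through SAH 7d-2, SAH 7d-6, SAH 7d-3 and SAH 7d-1 down to SAH 7d-4. The summed CPM of 7 monocyte and macrophage markers (Cd68, Cd163, Mrc1, Lyz2, Ms4a7, Arg1 and Gpnmb) had the same order, at 13287, 400, 173, 155, 154 and 113 CPM. Summed neutrophil markers had this order too, at 220, 20.9, 14.4, 8.23, 5.68 and 3.32 CPM, so it is not particular to macrophage markers. At SAH 1d versus sham 5 of the 7 monocyte and macrophage markers were called higher, beside 14.9% of all tested genes. The sum of these 7 was 62.3 to 106 CPM in sham and 196 to 735 CPM in SAH 1d. The summed CPM of 7 microglia markers was 275 to 484 in sham, 328 to 384 in SAH 1d and 340 to 2457 in SAH 7d, highest in SAH 7d-5, SAH 7d-2 and SAH 7d-6. None of the 7 monocyte and macrophage markers was at 0 in every library. Markers of other cells also moved at SAH 1d, beside 14.9% of all tested genes called higher and 10.5% called lower. Of 7 neuron markers 6 were called lower (summed 6119 to 9468 CPM in sham and 4699 to 5956 CPM in SAH 1d). Of 5 tested choroid plexus markers 3 were called higher (731 and 1056 CPM summed in SAH 1d-4 and SAH 1d-6). Of 7 astrocyte markers 1 was called higher and 2 lower, and 5 had a log2 fold change below 0, with a median of -0.19. Their sum was 3003 to 4924 CPM in sham and 5253 to 6300 CPM in SAH 1d. Within it Gfap was 285 to 540 CPM in sham and 2244 to 3769 CPM in SAH 1d, so the higher sum does not describe the astrocyte markers in general. The part of these cells in the levels of Tgfb1, Tgfbr1 and Tgfbr2 was not tested.

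**Figure D2:**
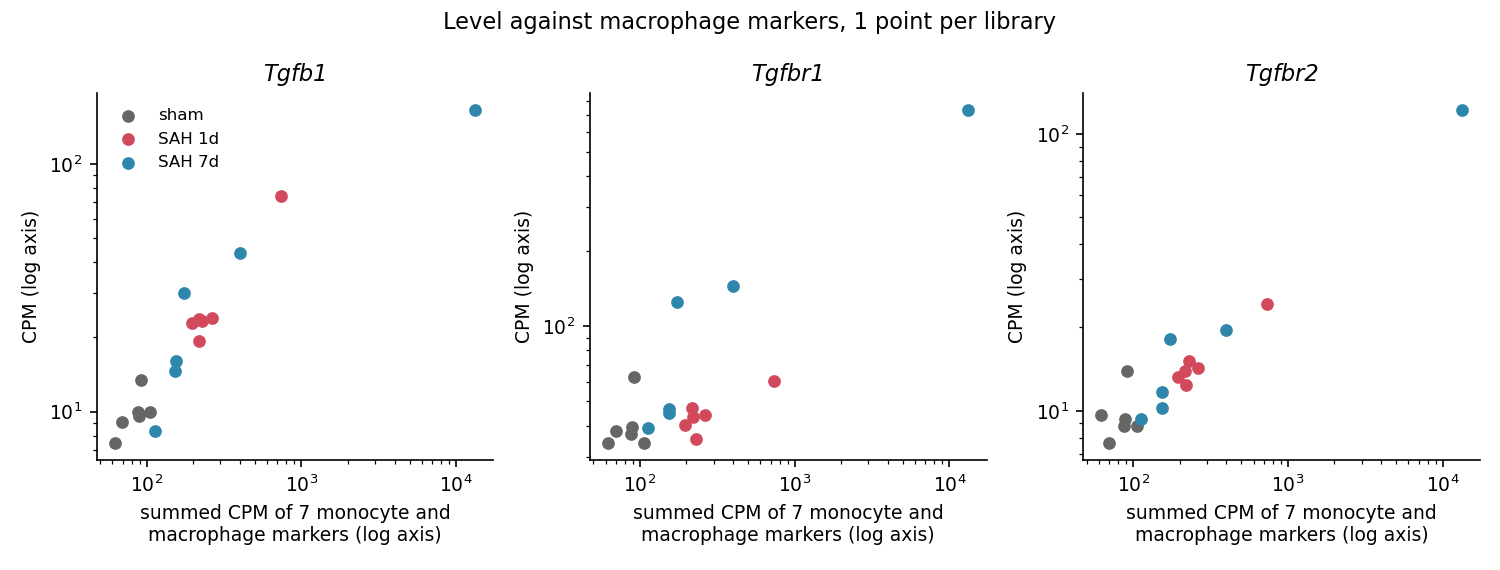
CPM of Tgfb1, Tgfbr1 and Tgfbr2 against the summed CPM of 7 monocyte and macrophage markers, both on log axes, with 1 point per library of sham, SAH 1d and SAH 7d. SAH 7d-5 is the point at 13287 CPM of markers, and SAH 1d libraries lie at 35.4 to 60.5 CPM of Tgfbr1, within the sham range of 34.0 to 62.6 CPM. The top of that sham range is sham-1 alone, and the next sham library is at 39.4 CPM.

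Tgfbi (ENSRNOG00000012216), which encodes an extracellular matrix protein induced by TGF-beta, rose at SAH 1d with the least margin of the 4 called genes. Its level was 3.49 to 4.90 CPM in sham (median 3.95), 4.50 to 28.0 CPM in SAH 1d (median 6.23) and 4.40 to 41.4 CPM in SAH 7d (median 5.05). In SAH 1d 5 of the 6 libraries were above every sham library, and SAH 1d-1 was within the sham range. Tgfbi had a log2 fold change of 1.24 (SE 0.41, adjusted p = 0.0417), and without SAH 1d-3 it was 0.52 (SE 0.14, adjusted p = 0.0148). The call was lost without any 1 of the 6 sham libraries (adjusted p from 0.0527 to 0.0775, log2 fold change from 1.20 to 1.30).

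At SAH 7d, Tgfbi was 41.4 CPM in SAH 7d-5 and at most 7.16 CPM in the other 5 libraries. All 6 were above the sham mean and 3 were above the highest sham library. Against sham its log2 fold change was 1.48 (SE 0.56, adjusted p = 0.270), and it was 0.39 (SE 0.15, adjusted p = 0.289) without SAH 7d-5.

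Smad7 (ENSRNOG00000018359), the inhibitory Smad that is itself a fast target of TGF-beta, did not pass the test in any comparison. Its level was 18.5 to 24.5 CPM in sham (median 21.3), 17.3 to 27.3 CPM in SAH 1d (median 25.2) and 20.1 to 28.6 CPM in SAH 7d (median 21.6). Groups overlapped, and 4 of the 6 SAH 1d libraries were above the highest sham library. Smad7 had log2 fold changes of 0.17 (SE 0.12, adjusted p = 0.316) at SAH 1d and 0.11 (SE 0.11, adjusted p = 0.606) at SAH 7d, both versus sham.

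**Figure D3:**
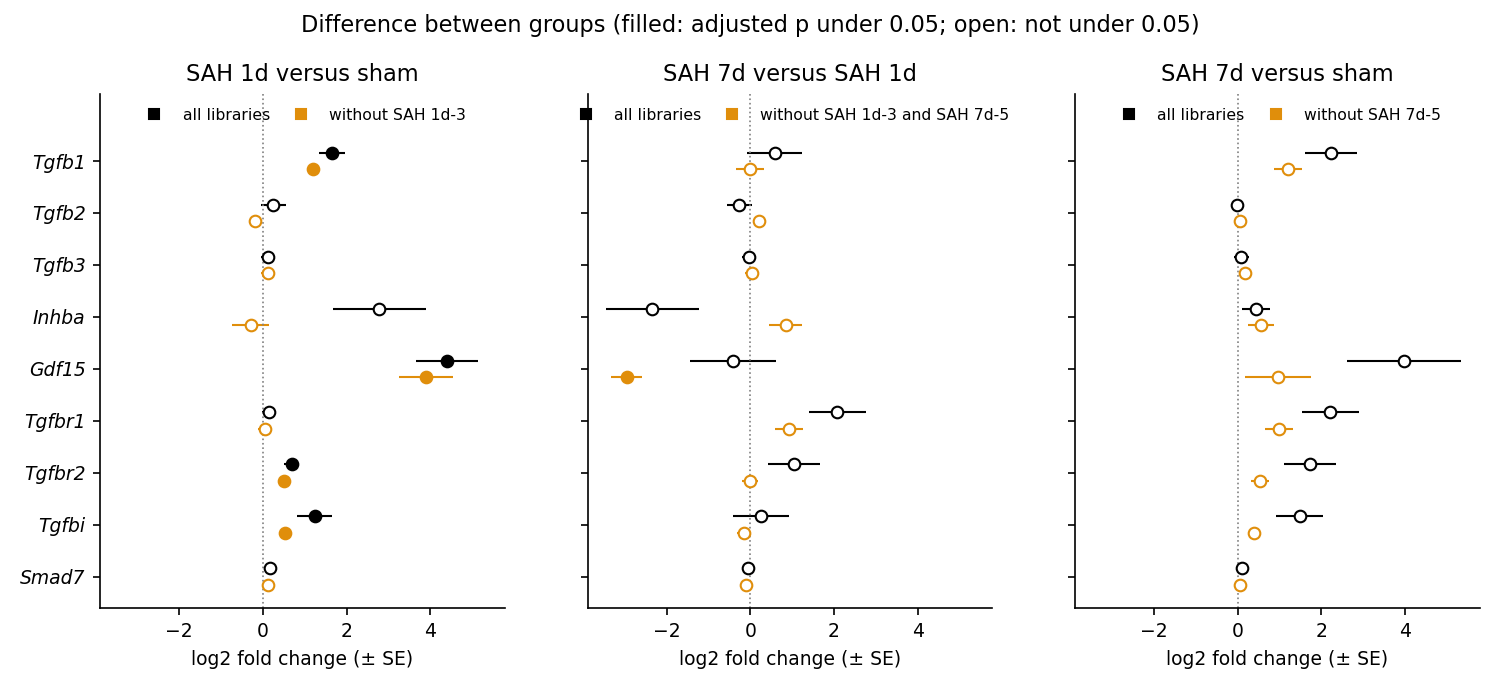
Log2 fold change of each of the 9 genes with its standard error in the 3 comparisons, for all libraries (black) and without the libraries that stood apart (orange); filled points have an adjusted p under 0.05. Filled black points are Tgfb1 (1.66), Gdf15 (4.40), Tgfbr2 (0.69) and Tgfbi (1.24) at SAH 1d versus sham; Inhba moves from 2.78 to -0.29 without SAH 1d-3, and Gdf15 at SAH 7d versus SAH 1d moves from -0.41 to -2.95.

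By length-scaled level, Tgfb2 led in sham with a median of 8.38 FPKM and Tgfbr1 came next with 6.19 FPKM, their ranges overlapping. Smad7 (4.59 FPKM) did not overlap with Tgfbr1, and Tgfb1 (4.24 FPKM), Tgfbr2 (3.07 FPKM) and Tgfb3 (3.05 FPKM) followed, each overlapping with the gene before it. Tgfbi (1.41 FPKM), Inhba (0.679 FPKM) and Gdf15 (0.0756 FPKM) were lowest, with no overlap between neighbours from Tgfb3 down. In SAH 1d Tgfb1 led with a median of 11.2 FPKM, and in SAH 7d Tgfbr1 led with 14.4 FPKM and Tgfb1 came next with 10.3 FPKM, each overlapping with the gene after it.

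For each of the 4 genes called at SAH 1d, the nearest profiles were sought among the 17134 tested genes whose symbol is not a locus name. The measure was the root mean square difference of centred log2 CPM over the 18 libraries, which is a description with no test. Nearest to Tgfb1 were Fxyd5 (0.219), Arpc1b (0.227) and Fcgr1a (0.246), where the log2 CPM of Tgfb1 itself had an SD of 1.14. Nearest to Tgfbr2 were Dap (0.175), Nrros (0.184) and Prcp (0.198), with an SD of 0.872 for Tgfbr2. Nearest to Tgfbi were Antxr2 (0.282), Esyt1 (0.295) and Soat1 (0.303), with an SD of 0.924. Gdf15 had no profile as near, with Hmox1 at 0.695, Mcemp1 at 0.895 and Ncf4 at 0.896 beside its own SD of 1.98.

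The other genes of the pathway form a list of 96, of which 95 were in the table and 87 were tested. At SAH 1d versus sham 22 of the 87 were called higher and 2 lower, beside 14.9% and 10.5% of all tested genes, with a median log2 fold change of 0.23 against 0.01 over all tested genes. The count of 22 fell to between 12 and 14 when sham-2, sham-4, sham-5 or sham-6 was left out, and it was 9 in a fit of all 18 libraries. The count of 2 lower became 10 without SAH 1d-3 and 12 with limma voom. None of the 12 tested ligands was called. Of these 12, 6 had an unadjusted p under 0.05, as had 44 of the 87. The share of all tested genes under that unadjusted p is not given here, so the 6 are not read as a trait of the ligands. Of the 21 target genes 10 were called higher and 1 lower, and the difference between the classes was not tested.

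**Figure D4:**
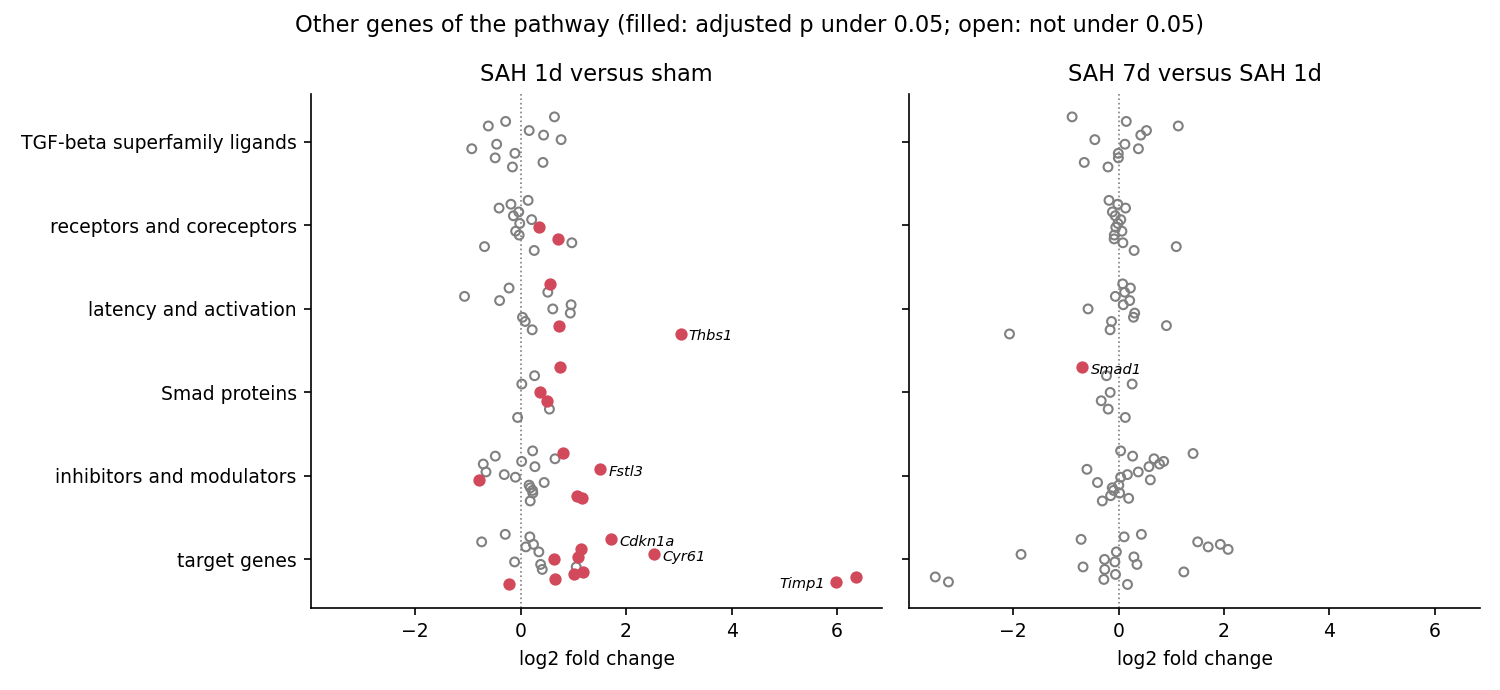
Log2 fold change of the 87 other tested genes of the pathway in 6 classes, at SAH 1d versus sham and at SAH 7d versus SAH 1d; each point is 1 gene and filled points have an adjusted p under 0.05. At SAH 1d versus sham 22 genes are higher and 2 lower, with Timp1 at 5.98, and at SAH 7d versus SAH 1d the filled point is Smad1 (-0.69).

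Among target genes, Timp1, which encodes an inhibitor of matrix metalloproteinases, had a level of 1.45 to 3.56 CPM in sham and 30.0 to 640 CPM in SAH 1d. The groups did not overlap, and SAH 1d-3 was highest. Its log2 fold change was 5.98 (SE 0.89, adjusted p = 0.000684), and 4.33 (SE 0.27) without SAH 1d-3. Cyr61, a matricellular protein, and Cdkn1a, a brake on the cell cycle, rose with log2 fold changes of 2.53 (SE 0.71) and 1.71 (SE 0.45), which were 1.26 and 1.09 without SAH 1d-3. Several of these genes answer to other signals as well as TGF-beta.

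At SAH 7d Timp1 was 3.56 to 10.5 CPM in 5 libraries and 61.5 CPM in SAH 7d-5. Those 5 were below every SAH 1d library, and SAH 7d-5 was above the SAH 1d median of 48.5 CPM. Its log2 fold change for SAH 7d versus SAH 1d was -3.23 (SE 1.02, adjusted p = 0.150), and without SAH 7d-5 and SAH 1d-3 it was -2.90 (adjusted p = 0.000219).

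Of the Smad genes, 3 of 7 were higher at SAH 1d, beside 14.9% of all tested genes, and Smad1, which carries the signal of bone morphogenetic proteins (BMPs), had the smallest adjusted p of the pathway. Its level was 20.8 to 25.3 CPM in sham, 33.2 to 46.8 CPM in SAH 1d and 22.7 to 25.3 CPM in SAH 7d. The SAH 1d libraries lay above all others, and the sham and SAH 7d libraries overlapped. Smad1 had a log2 fold change of 0.75 (SE 0.09, adjusted p = 0.000169) at SAH 1d versus sham and -0.69 (SE 0.10, adjusted p = 0.00375) at SAH 7d versus SAH 1d. Smad5, also of the BMP branch, and Smad4, the partner shared by both branches, rose by 0.49 (SE 0.11) and 0.37 (SE 0.12) on the log2 scale, but Smad4 was still called in only 6 of 12 fits with 1 library left out. Smad2 and Smad3, which carry TGF-beta and activin signals, had log2 fold changes of 0.27 (SE 0.13, adjusted p = 0.147) and 0.02 (SE 0.13, adjusted p = 0.915), and were chosen for mention after their values were seen.

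Of 13 tested genes of TGF-beta latency and activation 3 were higher at SAH 1d, beside 14.9% of all tested genes. Each of the 3 had no overlap with sham, which held for 7.89% of all tested genes. Thbs1, which encodes the activator thrombospondin-1, had a log2 fold change of 3.03 (SE 0.82, adjusted p = 0.0177), and 1.12 (SE 0.22) without SAH 1d-3. Nrros, which tethers latent TGF-beta on microglia and macrophages, rose by 0.73 (SE 0.18, adjusted p = 0.0118) on the log2 scale. Furin, a protease that cuts the TGF-beta precursor, rose by 0.55 (SE 0.18, adjusted p = 0.0398), and 0.31 (SE 0.07) without SAH 1d-3, but its call was lost without any 1 of the 6 sham libraries.

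Of 14 tested receptors and coreceptors 2 were higher, Cd109, a coreceptor that restrains TGF-beta signaling, by 0.70 (SE 0.23) and Bmpr1a, a BMP receptor, by 0.36 (SE 0.11) on the log2 scale, a share near the 14.9% of all tested genes. With 1 library left out, Cd109 was still called in 4 of 12 fits and Bmpr1a in 3 of 12. Of 20 inhibitors and modulators 4 were higher and 1 was lower, beside 14.9% and 10.5% of all tested genes. Fstl3, which binds activin, rose by 1.51 (SE 0.50, adjusted p = 0.0417), and by 0.69 (adjusted p = 0.0767) without SAH 1d-3, when it was no longer called. Tgif2 and Tgif1, repressors that bind Smads, rose by 1.16 (SE 0.27) and 1.07 (SE 0.32), and Bgn, a matrix proteoglycan that binds TGF-beta, rose by 0.80 (SE 0.25). Bgn was still called in 7 of 12 fits with 1 library left out, Fstl3 in 5 and Tgif1 in 10. The lower pair of the list was Nog, a BMP antagonist (-0.79, SE 0.21, adjusted p = 0.0163), and the target gene Tsc22d1 (-0.23, SE 0.08, adjusted p = 0.04999), both named after their values were seen.

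In SAH 7d versus sham edgeR called none of the 9 genes, none of the 87 and none of the 18444, while 5 of the 9, 25 of the 87 and 2842 of the 18444 (15.4%) had an unadjusted p under 0.05. DESeq2 called 2 of the 9, Tgfb1 and Tgfbr1, beside 459 genes in all (2.2% of tested genes higher), and without SAH 7d-5 it called Tgfb1 (2.33% of tested genes higher). In limma voom with sample weights none of the 9 was called, beside 2 genes in all (0.0108%). The SAH 1d comparison shares its sham libraries with the SAH 7d versus sham comparison and its SAH 1d libraries with SAH 7d versus SAH 1d, so the 3 sets of values are not independent.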

How the data were processed

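RNA of 18 cortex libraries was sequenced on an Illumina instrument. Reads with adapters or of low quality were removed by the authors, and the study names Rnor_6.0 as the rat genome they were aligned to. The submitters' processing notes list fastp, HISAT2, DESeq2 1.16.1 and the mouse build mm9, which goes against the rat gene identifiers. The counting program is not given in the sources used here. The authors deposited counts as whole numbers without normalization, and beside them FPKM values, which scale the reads of a gene by its length and by the library total.

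Counts were tested with edgeR 4.0.16 in R 4.3.3 (filterByExpr over 18 libraries, TMM, quasi-likelihood F test, 12 libraries per comparison), which kept 18444 genes and was tested on simulated data. The study's 2-fold threshold is used only where named. Libraries are separate rats, so the error is the spread between rats. Alternatives were DESeq2 1.42.0, limma 3.58.1 (voom, or log2 FPKM with pseudocounts of 1 and 0.1), other filters, a fit of all 18 libraries and leaving out libraries. DESeq2 adjusted p values of NA stayed NA. The 9 genes, the pathway and marker lists and the motifs were chosen with earlier results of these data known. Besides the 9 genes, pathway genes are named by a rule: up to 4 per class with the largest log2 fold change among those called at SAH 1d versus sham, and up to 2 in each other comparison, with exceptions stated; 1 target gene that the rule names is not reported here. Profiles are compared on log2 CPM with a prior count of 2. Itgb5 of the pathway list and the markers Ccr2 and Pecam1 were not matched and not used here. Promoters are from RefSeq (GRCr8), where all 9 genes matched, and figures were drawn with matplotlib 3.10.9.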

Additional observations from a re-analysis of the deposited data

Results flagged for a closer look

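Each of the 9 genes was checked in each group for a library far from the rest, by the gap to the nearest library over the range of the group (Dixon's test at its critical value). This was so in 14 of 27 gene and group pairs, where chance gives about 1 in 20 if values are normally distributed. The check used CPM without logs, so that rate may not hold here. The genes also share libraries, so these pairs are not independent.

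Library SAH 1d-3 was the highest of its group for 6 genes: Tgfb1 (74.1 CPM, next 23.9), Tgfb2 (104 CPM, next 43.4), Inhba (64.5 CPM, next 3.28), Gdf15 (4.31 CPM, next 1.80), Tgfbr2 (24.3 CPM, next 15.1) and Tgfbi (28.0 CPM, next 7.11). Library SAH 7d-5 was far above its group for 5 genes. They were Tgfb1 (165 CPM, next 43.6), Gdf15 (7.05 CPM, next 0.240), Tgfbr1 (733 CPM, next 145), Tgfbr2 (122 CPM, next 19.6) and Tgfbi (41.4 CPM, next 7.16). SAH 7d-5 was also the highest, but not far from the rest, for Smad7 (28.6 CPM, next 26.3). Library sham-1 was far above the other sham libraries for Tgfbr1 (62.6 CPM, next 39.4) and Tgfbr2 (14.0 CPM, next 9.63). It was far below them for Tgfb3 (5.43 CPM, next 7.97). Tgfb3 and Smad7 were not far from the rest in SAH 1d-3 or SAH 7d-5, and Inhba was high in SAH 1d-3 but was the lowest SAH 7d library in SAH 7d-5 (1.42 CPM). The cause was not tested.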

How the results depend on the processing

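For SAH 1d versus sham, the number of the 9 genes called higher was 4; it was 1 with all 18 libraries in 1 fit (Gdf15 only), and 3 to 4 with 1 library left out. Tgfb1, Gdf15 and Tgfbr2 stayed above 0 and stayed called in each other alternative run; Tgfbi did not. Of the other pathway genes 9 were higher in the fit of 18 libraries, and 12 to 24 with 1 library left out. Pathway genes lower numbered 2 and became 4 with DESeq2, 12 with limma voom, 1 in the robust, 18-library, unfiltered and log2(FPKM + 0.1) fits, 13 with DESeq2 without SAH 1d-3, and 1 to 10 with 1 library left out (10 without SAH 1d-3). All genes called fell from 4684 to 2462 in the fit of 18 libraries.

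At SAH 7d versus SAH 1d, members higher rose from 0 to 1 with DESeq2 (Tgfbr1), and members lower from 0 to 1 (Gdf15) with limma voom (8.37% of all tested genes lower), without SAH 7d-5, without SAH 7d-5 and SAH 1d-3 together, and with DESeq2 without both, a setting chosen after seeing the data; the range with 1 library left out was 0 to 1. Pathway genes higher (0) became 2, 8, 1, 1, 8 and 11, and lower (1) became 1, 5, 2, 1, 6 and 9, with DESeq2, limma voom, 18 libraries, log2(FPKM + 1), both libraries out, and DESeq2 without both; with 1 library left out they were 0 to 3 and 1 to 5. All genes called (252) became 1012, 2718, 779, 406, 2512 and 3384 in that order, 403 with log2(FPKM + 0.1), and 102 to 1545 with 1 library left out, the highest without SAH 7d-5. For SAH 7d versus sham, DESeq2 called 2 members, 3 pathway genes higher, 1 lower and 459 genes in all; limma voom called 2 genes and the fit of 18 libraries 9. DESeq2 without SAH 7d-5 called 1 member, 6 pathway genes higher and 542 genes, and with 1 library left out edgeR called 0 to 3 genes.

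Signs turned only for estimates that were not called. At SAH 1d versus sham, Tgfb2 was -0.066 with limma voom and -0.18 with DESeq2 without SAH 1d-3, and Inhba was -0.32 and -0.30; with 1 library left out they ran from -0.18 to 0.37 and from -0.29 to 3.03. At SAH 7d versus SAH 1d under limma voom, Tgfb1 was -0.25, Tgfb2 0.14, Inhba 1.02, Tgfbr2 -0.043 and Tgfbi -0.14. Without both libraries Tgfb1 was -0.0055, Tgfb2 0.21, Tgfb3 0.044, Inhba 0.84, Tgfbr2 -0.0053 and Tgfbi -0.15, and with DESeq2 Tgfb2 was 0.22, Tgfb3 0.055, Inhba 0.85 and Tgfbi -0.13. With log2(FPKM + 1) and log2(FPKM + 0.1), Tgfb1 was -0.029 and -0.064 and Tgfbi -0.039 and -0.087. With 1 library left out Tgfb1 ran from -0.48 to 1.05, Tgfb2 from -0.38 to 0.16, Tgfb3 from -0.10 to 0.073, Inhba from -2.59 to 0.73, Gdf15 from -3.46 to 0.10, Tgfbr2 from -0.18 to 1.24 and Tgfbi from -0.86 to 0.97. At SAH 7d versus sham Tgfb2 was 0.084 with limma voom, 0.00053 with a minimum of 10 counts, 0.039 and 0.044 in the FPKM fits, 0.046 with DESeq2 without SAH 7d-5, and -0.056 to 0.049 with 1 library left out.

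The replicate numbers do not pair the libraries: the deviations of same-numbered libraries from their group means correlated at -0.252 to 0.197, with 1 of 18 pairs over 0.1. With the replicate number as a block, members higher at SAH 1d were 3 (Tgfbi had a log2 fold change of 0.86, adjusted p = 0.127), pathway genes 17 higher and 3 lower, and all genes 3979. At SAH 7d versus SAH 1d the block left 0 pathway genes lower and 29 genes in all, with Tgfb1 at -0.047, Inhba at 0.13 and Tgfbi at -0.067. The cause of these differences was not tested. With 6 libraries a group and 1 library far from the rest in 2 groups, SAH 7d folds are the least certain. Low counts limit Gdf15 and Inhba.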
